A study of Mus musculus with 8 samples.

Results

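Mouse embryos that had received the same insertion from opposite parents were set against each other: maternal knock-in embryos (MKI), in which it lay on the chromosome from the mother, and paternal knock-in embryos (PKI), in which it lay on the chromosome from the father. The samples were chosen by their genotype label alone, and no measured value entered the choice. They are 4 of the 8 labelled samples, 2 of each genotype, and they are represented by 2 of the 4 columns in each of the 3 deposited tables (mRNA, long non-coding RNA and microRNA). The insertion is a set of 3 polyadenylation cassettes in the promoter of Gtl2, also called Meg3, made with Easi-CRISPR, a method that uses a long single-stranded DNA donor. The other columns are homozygotes with the insertion on both chromosomes (HOMO) and wild type without it (WT). All material was whole embryo. The design text gives embryonic day 12.5 for every genotype, while the sample titles read E12.7 for MKI, E12.6 for PKI, E12.8 for HOMO and E12.5 for WT. Strain background, number of founder lines, position of the cassettes within the promoter and any pooling of embryos were not stated in the labels.

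Each genotype has 1 column per table, so no spread between embryos could be estimated. Every difference below is therefore one between single columns, without an SD or a p-value, and HOMO minus WT is given beside it as the pair of columns that shares none with MKI minus PKI. Differences are on the scale log2(value + 0.5), and a feature is called at 2-fold. FPKM is a level scaled to transcript length and library size. The rpm values are reads scaled to the total assigned to the listed microRNAs, since each microRNA column sums to 1e+06 over its 2395 entries. Because whole embryos were used, fewer cells of a type and less RNA per cell cannot be told apart in any of the values.

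The MKI column stood apart from the other columns in the mRNA table. Across kept genes its Pearson correlation with PKI, HOMO and WT was 0.875, 0.864 and 0.882, while the pairs among PKI, HOMO and WT lay between 0.961 and 0.975. For microRNAs outside the domain described next, all pairs lay between 0.979 and 0.989. Genes are not independent replicates, and these values describe the columns only. Markers of liver (Hnf4a), red cells (Gata1), endothelium (Kdr), neurons (Dcx), skeletal muscle (Myog), heart (Myh6), epidermis (Krt5), cartilage (Sox9) and macrophages (Csf1r) were at 1 FPKM or more in every column. Other markers of some of these types were not. Nkx2-5 (heart) was at 0.0438 FPKM in MKI, 0.390 in HOMO and 0.700 in WT. C1qa (macrophages) was at 0.837 FPKM in MKI and Acan (cartilage) at 0.783 FPKM in PKI. Krt14 (epidermis) was below 1 FPKM in MKI. The yolk sac and placenta markers Apoa4, Cubn, Prl3d1, Tpbpa and Gcm1 did not exceed 0.379 FPKM in any column. Of the whole list of 17 yolk sac and placenta genes, 5 passed the filter (Rbp4, Peg10, Ttr, Gjb2 and Hand1, which the embryo proper also expresses), 2 of them 2-fold higher in MKI, with a median of 0.85 and a summed level of 220.0 FPKM in MKI, 117 in PKI, 186 in HOMO and 176 in WT. Of genes listed at 0 in 1 column and at 5 FPKM or more in the other 3, the WT column had 4, all Y-linked, so WT lacks RNA of the Y chromosome that the other columns hold.

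Genomic imprinting silences 1 parental copy of a gene by marks set in the egg or the sperm. In the Dlk1-Dio3 domain of mouse chromosome 12, Meg3 and the RNAs downstream of it (Rian, Mirg and a large group of microRNAs) are transcribed from the maternal chromosome, while the protein-coding genes Dlk1, Rtl1 and Dio3 are transcribed from the paternal one. The microRNAs lie in the introns of these long RNAs or between them, and a polyadenylation signal ends transcription. By design the genotypes compared differ in the parent that transmitted the cassettes. Each microRNA recognises its targets mainly by its seed, the bases 2 to 8 of the mature strand.

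The promoter that carries the insertion is shown first because it defines the genotypes. Its unmodified sequence in RefSeq (GRCm38.p6, chr12:109540746-109541045, plus strand, from 250 bases before the Meg3 start to 50 after it) reads as follows, with capitals marking the cAMP response element TGACGTCA and the TATA-type motif TATATAAA.
Meg3 promoter: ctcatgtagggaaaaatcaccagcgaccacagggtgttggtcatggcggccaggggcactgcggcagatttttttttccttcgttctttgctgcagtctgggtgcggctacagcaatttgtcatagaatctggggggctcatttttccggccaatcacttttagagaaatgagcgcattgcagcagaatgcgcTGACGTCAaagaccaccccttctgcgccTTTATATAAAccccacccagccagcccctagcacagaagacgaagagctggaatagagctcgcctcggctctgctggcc
TGACGTCA, which is its own reverse complement, begins 57 bases before the start, and TATATAAA begins 27 bases before it. A copy of the reverse complement TTTATATA overlaps the TATATAAA match, which lengthens the run of capitals. Searched on both strands, TGACGTCA was present in 1.79% of 32851 promoters of the same length and TATATAAA in 1.4%. Both are descriptions of letters, not of bound factors.

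The 10 domain microRNAs with the highest level in PKI carry most of the domain's reads, and their mature strands from RefSeq are given next, 5′ to 3′, with the seed in capitals.
miR-127-3p: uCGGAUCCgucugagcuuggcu
miR-541-5p: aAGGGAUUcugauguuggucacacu
miR-370-3p: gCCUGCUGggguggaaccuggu
miR-434-5p: gCUCGACUcaugguuugaacca
miR-379-5p: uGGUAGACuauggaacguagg
miR-381-3p: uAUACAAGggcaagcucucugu
miR-409-3p: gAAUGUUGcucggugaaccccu
miR-411-5p: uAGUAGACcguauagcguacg
miR-543-3p: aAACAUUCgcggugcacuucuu
miR-434-3p: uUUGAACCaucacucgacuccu
No seed occurs more than once among these 10. All 10 are on the plus strand of chromosome 12, the strand of Meg3, and miR-127-3p, for example, lies at chr12:109592888-109592909. RefSeq sequences were matched for 74 of the 77 kept domain microRNAs and for 426 of all 505 kept.

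The domain's microRNAs were low in MKI and close to their WT level in PKI. They made up 0.409% of microRNA reads in MKI (35332 of 8638401, exact 95% interval 0.405 to 0.413%) and 12.5% in PKI (1257927 of 10072670, 12.47 to 12.51%). HOMO, at 0.427% (0.422 to 0.431%), was close to MKI, and WT, at 13.7% (13.69 to 13.73%), was close to PKI. These intervals cover counting error only. All 77 kept members were at least 2-fold lower in MKI than in PKI, which is 100% against 2.57% of the 428 kept microRNAs outside the domain. The median difference was -4.75 (range -6.86 to -3.64). For HOMO minus WT it was also 77 of 77, again 100%, with a median of -4.82 (-6.88 to -2.54). In all 77, MKI and HOMO were both below PKI and WT.

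The filter needs a qualification. Of the 77, 41 reached 10 rpm in PKI and WT alone, so they entered through the columns in which they were high and had to differ. Without any filter, 107 of 109 domain entries had a read in some column, and MKI was below PKI in 103, above it in 2 and equal in 2. Of the 107, 97 were at least 2-fold lower and 1 was at least 2-fold higher. Among the 30 members at 10 rpm or more in all 4 columns, the median was -4.80 (-5.88 to -4.20). The member just inside the filter, miR-1193-5p, was at 0.232 rpm in MKI, 10.2 in PKI, 0.624 in HOMO and 12.02 in WT. miR-376a-3p, just outside, was at 0.347 rpm in MKI, 9.03 in PKI, 1.12 in HOMO and 11.9 in WT.

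The highest member was miR-127-3p, which is transcribed antisense to Rtl1 and cuts its transcript. It was at 455 rpm in MKI, 26139.5 in PKI, 794 in HOMO and 26481 in WT. That is 1.74% of the PKI reads remaining in MKI (exact 95% interval 1.69 to 1.80%), with MKI and HOMO far below PKI and WT. miR-541-5p, the next in PKI, was at 965 rpm in MKI, 23305 in PKI, 549 in HOMO and 19152 in WT. Its level in MKI was 4.14% of that in PKI (4.05 to 4.23%). HOMO lay above MKI for miR-127-3p and below it for miR-541-5p.

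miR-370-3p was at 399 rpm in MKI, 7965 in PKI, 398 in HOMO and 10859 in WT. Its remaining share in MKI was 5.01%. miR-379-5p, the first member of the large distal cluster, was at 207 rpm in MKI, 6871 in PKI, 257 in HOMO and 7654 in WT, a difference of -5.05 between MKI and PKI. These 4 columns split into the same pair of low and pair of high values as miR-127-3p.

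The other 6 of the 10 kept that split. miR-434-5p was at 294 rpm in MKI, 7642 in PKI, 336 in HOMO and 13281 in WT. Its partner arm miR-434-3p was at 38.5 rpm in MKI, 2224 in PKI, 85.2 in HOMO and 2042 in WT. Both arms were low in MKI and HOMO. miR-381-3p was at 271 rpm in MKI, 6443 in PKI, 368 in HOMO and 10831 in WT. miR-409-3p was at 230.0 rpm in MKI, 5514 in PKI, 163 in HOMO and 5463 in WT. Among these 6 the largest remaining share in MKI was that of miR-381-3p, 4.20%, and the smallest that of miR-434-3p, 1.73%. miR-411-5p, whose seed shares the letters GUAGAC with that of miR-379-5p, was at 109 rpm in MKI, 3573 in PKI, 153 in HOMO and 4412 in WT. miR-543-3p was at 109 rpm in MKI, 3060.1 in PKI, 121 in HOMO and 4421 in WT.

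**Figure D1:**
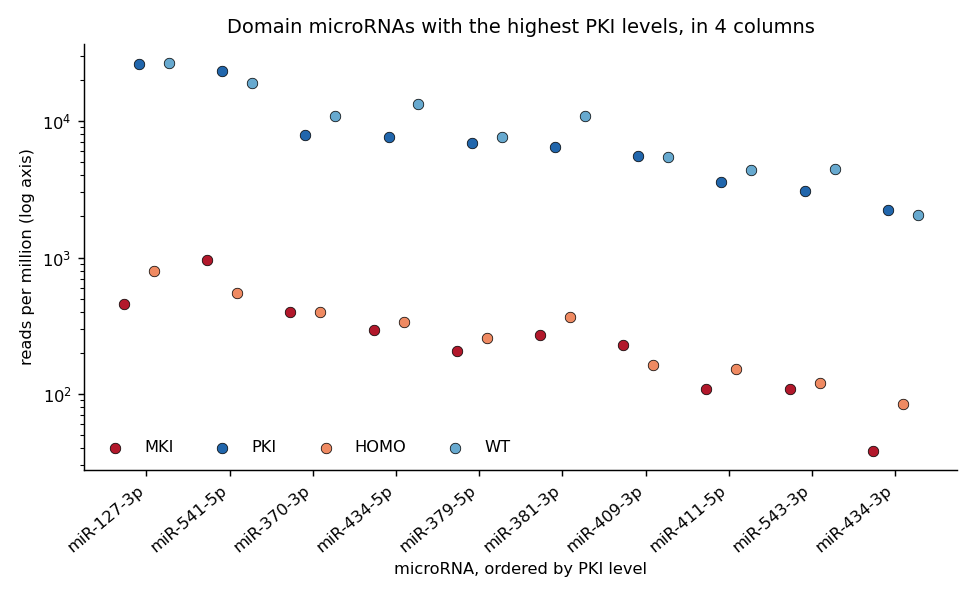
Levels (rpm, log axis) of the 10 domain microRNAs highest in PKI, with 1 point per column in the order MKI, PKI, HOMO, WT. MKI and HOMO lie together at 38.5 to 965 rpm, and PKI and WT lie together at 2042 to 26481 rpm.

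Across all 77, the read share left in MKI had a median of 3.01% of PKI. It ran to 6.32% for miR-539-5p (29 reads in MKI and 535 in PKI). miR-1188-5p had 0 reads in MKI against 136 in PKI, where a count of 0 allows up to 3.21%. The largest log2 difference was that of miR-341-3p, at 5.21 rpm in MKI, 662 in PKI, 6.86 in HOMO and 869 in WT. MKI was lower than HOMO in 47 of the 77, and PKI lower than WT in 41, so neither the low pair nor the high pair had a common order.

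Placed members were lower in MKI wherever they lay. The 74 with a RefSeq position fall into stretches along the chromosome. The first 7 lie 22.7 to 44.9 kb downstream of the Meg3 start, and their median was -5.41. The next 12, at 45.1 to 54.4 kb, include the Rtl1-antisense microRNAs miR-431, miR-433, miR-127, miR-434 and miR-136, and had a median of -5.74. Another 4 (miR-341-3p, miR-1188-5p and both arms of miR-370) lie at 70.6 to 77.3 kb, with a median of -4.56. The last 51, the distal cluster around Mirg from miR-379 to miR-410 and miR-3072-3p beyond it, lie at 168 to 207 kb, with a median of -4.65. The median share left in MKI was 1.89%, 1.81%, 2.90% and 3.28% of PKI in these sets in order of distance. Members of a set are neighbours measured in the same libraries, so this is a description of the 2 columns and not a test of position.

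**Figure D2:**
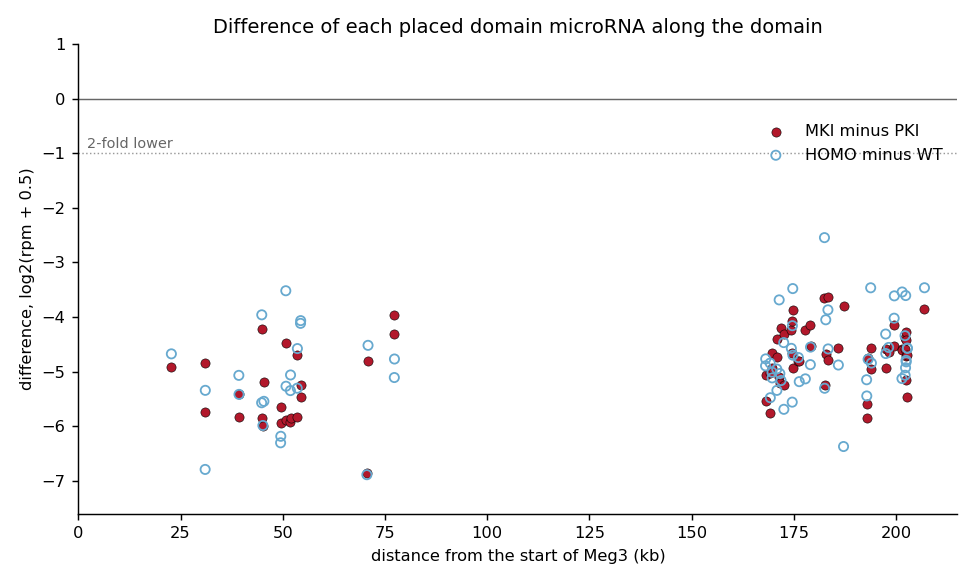
Log2 difference of each placed domain microRNA (74 of 77) against its distance from the Meg3 start in kb, for MKI minus PKI (filled) and HOMO minus WT (open); the dotted line marks 2-fold lower. Both pairs lie below the line along the whole span, with MKI minus PKI medians of -5.41 and -5.74 for the nearer members and -4.65 for the distal 51.

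Both domain entries with a higher level in MKI than in PKI come from the minus strand. The precursor of miR-3544 lies on the minus strand, which is the strand of Rtl1, opposite the precursor of miR-337 on the plus strand. Their mature strands show the overlap, with the seed in capitals.
miR-337-3p: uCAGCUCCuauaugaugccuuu
miR-3544-5p: aGAAAGGCaucauauaggagcug
Their genomic positions overlap on opposite strands, so their letters are largely complementary. miR-3544-5p (chr12:109585851-109585873) was at 9.26 rpm in MKI, 0.596 in PKI, 6.61 in HOMO and 0.595 in WT, or 80, 6, 53 and 5 reads in the order MKI, PKI, HOMO, WT. That is 1555% of PKI (exact 95% interval 684 to 4363%), and the log2 difference was 3.16 for MKI minus PKI and 2.70 for HOMO minus WT. In contrast miR-337-3p, from the other strand of the same site, was at 0.579 rpm in MKI, 19.5 in PKI, 0.374 in HOMO and 13.1 in WT. miR-337-5p was at 25.6 rpm in MKI, 1497 in PKI, 28.6 in HOMO and 1378 in WT. The other arm, miR-3544-3p, had only 3, 5, 7 and 1 reads in the same order of columns. The remaining exception, miR-1247-5p, is encoded on the minus strand beside Dio3 and had 12 reads in MKI, 5 in PKI, 12 in HOMO and 10 in WT. Neither exception reached the 10 rpm filter, and both were chosen after their values were seen.

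Among microRNAs with a RefSeq sequence, the seeds of the domain members were for the most part theirs alone. Of the 505 kept microRNAs 426 had such a sequence, and entries without one were not searched. The 74 domain members with a sequence hold 71 seeds. Of these, 67 occurred in no searched microRNA outside the domain with 1 rpm or more summed over MKI and PKI. Summed over all searched microRNAs with the same seed, 69 of the 71 were at least 2-fold lower in MKI than in PKI. In both exceptions another gene supplies most of the seed, as the sequences show.
miR-412-3p: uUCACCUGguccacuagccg
miR-1983: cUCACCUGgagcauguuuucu
miR-377-5p: aGAGGUUGcccuuggugaauuc
miR-672-5p: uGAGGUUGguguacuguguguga
The seed UCACCUG of miR-412-3p, shared with miR-1983 on chromosome 13, summed to 2271 rpm in MKI and 2059 in PKI, and 99.3% of the PKI sum came from outside the domain. The seed GAGGUUG of miR-377-5p, shared with miR-672-5p on chromosome X, summed to 138 rpm in MKI and 159 in PKI, with 88.0% from outside. Counting kept members only, 3 seeds had 2 domain members each. Some other seeds also occur in a domain member below the filter, such as AUGUGGG in miR-299a-3p and miR-299b-3p. The seed sums include such members. The seed GGUAGAC of miR-379-5p and miR-1193-5p summed to 207 rpm in MKI and 6882 in PKI.

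Among the paternally transcribed genes of the domain, Rtl1 was higher in MKI and HOMO than in PKI and WT. Dlk1 was highest in HOMO, with MKI close to WT and PKI lowest. Both differed between MKI and PKI by less than the microRNAs did. Dlk1, a membrane protein with a Notch-ligand-like structure, was at 83.4 FPKM in MKI, 55.7 in PKI, 181 in HOMO and 80.5 in WT, a log2 difference of 0.58 for MKI minus PKI and 1.17 for HOMO minus WT. Rtl1, a retrotransposon-derived protein needed in placental capillaries and fetal muscle, was at 2.28 FPKM in MKI, 0.610 in PKI, 2.51 in HOMO and 1.02 in WT. For Rtl1 the difference was 1.33 between MKI and PKI, past 2-fold, and 0.98 between HOMO and WT. Dio3, the deiodinase that inactivates thyroid hormone, was at 0.217 FPKM in MKI, 0.416 in PKI, 1.42 in HOMO and 0.568 in WT and failed the filter of 1 FPKM in at least 2 columns. HOMO was the highest column for all 3, and PKI was the lowest for Dlk1 and Rtl1. Opposite-strand reads could reach Rtl1, since its span (chr12:109564900-109604418) overlaps Meg3 and no source names the strand used in counting. The maternally transcribed long RNAs were not analysed by name, since none of the 7 listed was found by name in the mRNA table and the long non-coding table gives transcript identifiers only.

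Of 18 kept genes that flank the domain, none was 2-fold higher in MKI and 3 were 2-fold lower, and their median was -0.17. Ankrd9, an ankyrin-repeat protein, was at 0.529 FPKM in MKI, 2.65 in PKI, 3.01 in HOMO and 3.02 in WT. Slc25a29, a mitochondrial carrier of basic amino acids, was at 0.814 FPKM in MKI, 3.34 in PKI, 2.47 in HOMO and 2.62 in WT. Begain, a brain-enriched protein that is imprinted in some mammals, was at 1.07 FPKM in MKI, 2.67 in PKI, 3.48 in HOMO and 3.21 in WT. In all 3 MKI was the lowest column and HOMO lay near WT. Of all 13279 kept mRNA genes 16.6% were 2-fold lower in MKI, close to the share that 3 of 18 makes.

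Imprinted genes elsewhere in the genome differed in both directions. Of 24 kept paternally expressed genes, 3 were 2-fold higher in MKI than in PKI and 4 lower, with a median of 0.19; over all kept genes 2.55% were higher, 16.6% were lower and the median was -0.04, so the lower count is near the background. Igf2, the fetal insulin-like growth factor, was at 170.2 FPKM in MKI, 380.0 in PKI, 394 in HOMO and 379.7 in WT. Peg10, a retrotransposon-derived placental gene, was at 142 FPKM in MKI, 63.8 in PKI, 96.3 in HOMO and 97.5 in WT. Nap1l5 was at 5.64 FPKM in MKI, 2.00 in PKI, 2.61 in HOMO and 3.77 in WT. Igf2 was low in MKI alone, while Peg10 was highest in MKI and lowest in PKI.

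Nnat, a small proteolipid of developing brain, was at 64.2 FPKM in MKI, 262 in PKI, 208 in HOMO and 309 in WT. It lies within Blcap (Nnat chr2:157560078-157562525 in Blcap chr2:157556362-157566361), which was listed at 0 in MKI, so the division of reads between them, and both values, are uncertain. Of 20 kept maternally expressed genes, 1 was higher and 4 lower, again near the background, with a median of 0.21. Tssc4 was at 6.72 FPKM in MKI, 23.7 in PKI, 19.9 in HOMO and 19.8 in WT. Osbpl5, an oxysterol-binding protein, was at 3.60 FPKM in MKI, 8.85 in PKI, 9.37 in HOMO and 9.44 in WT. Cd81, a tetraspanin, was at 37.0 FPKM in MKI, 83.5 in PKI, 82.7 in HOMO and 78.5 in WT. In all 3 genes MKI alone was low. Asb4, the gene that was higher, was at 47.1 FPKM in MKI, 21.8 in PKI, 30.9 in HOMO and 31.2 in WT.

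Outside the domain the small RNAs differed little. Of 428 kept microRNAs, 8 (1.87%) were at least 2-fold higher in MKI than in PKI and 11 (2.57%) lower, with a median of 0.09. For HOMO minus WT, 11 (2.57%) were higher and 9 (2.1%) lower. The split between higher and lower depended on scaling: higher ones made up 42.1% of the calls, 97.2% after quantile normalization, and were 4 against 16 lower with rpm taken over reads outside the domain. Quantile normalization moved the median of all by 0.55 and the other scaling by -0.18.

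Among those at 50 rpm or more in the higher column, the largest difference was that of a predicted microRNA, novel_miR_531, at 9.49 rpm in MKI, 206 in PKI, 9.98 in HOMO and 239 in WT. It has no position in the reference table, so whether it lies within the domain is unknown. miR-598-3p, which is enriched in brain, was at 128 rpm in MKI, 385 in PKI, 125 in HOMO and 322 in WT, leaving 33.3% of its PKI reads in MKI (exact 95% interval 31.1 to 35.6%). miR-375-3p, abundant in neuroendocrine cells and pancreatic islets, was at 36 rpm in MKI, 107 in PKI, 41.7 in HOMO and 117 in WT. miR-219a-1-3p, of a gene known for its role in oligodendrocytes, was at 51.9 rpm in MKI, 164 in PKI, 66.9 in HOMO and 153 in WT. These 4 had the same order as the domain, low in MKI and HOMO and high in PKI and WT. Among the 11 lower ones, HOMO was on the MKI side and WT on the PKI side in 9, and 7 were also 2-fold lower in HOMO than in WT. The fifth named one, novel_miR_64, was at 39.0 rpm in MKI, 99.9 in PKI, 70.5 in HOMO and 53.7 in WT, and did not share that order.

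The higher ones behaved otherwise. miR-451a, a red cell microRNA, was at 1501 rpm in MKI, 647 in PKI, 854 in HOMO and 493 in WT. miR-19a-3p, of the miR-17-92 cluster, was at 1056 rpm in MKI, 457 in PKI, 631 in HOMO and 501 in WT. miR-96-5p, a microRNA of sensory cells, was at 3266 rpm in MKI, 1604 in PKI, 1995 in HOMO and 1925 in WT. For these 3, MKI was the highest column. miR-1981-5p was at 892 rpm in MKI against 421 in PKI, and miR-153-3p, a neuronal microRNA, at 104 rpm in MKI against 48.5 in PKI. A low one, miR-7688-5p, was at 10.8 rpm in MKI, 0 in PKI, 9.36 in HOMO and 10.5 in WT, where 0 reads allow up to 0.298 rpm (3 reads); it was named after its values were seen. None of the 8 higher ones was 2-fold higher in HOMO than in WT. Lists of tissue microRNAs had medians of 0.07 over 6 red cell microRNAs, 0.19 over 7 of skeletal muscle and heart, 0.21 over 13 neural, 0.56 over 7 hepatic and -0.02 over 10 of skin epithelium, beside 0.09 over all 428. The red cell median became -0.12 with rpm taken over reads outside the domain. That of skeletal muscle and heart became -0.04 with the filter at 100 rpm, and that of skin epithelium 0.52 after quantile normalization. The neural and hepatic medians kept their sign.

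The ratio of reads between the arms of a precursor also differed among small RNAs. Of 109 precursors with both arms measured, the log2 ratio of 5p to 3p shifted by at least 1 between MKI and PKI in 8. For miR-30e, the 5p arm was at 9659.8 rpm in MKI, 5284 in PKI, 7252 in HOMO and 5368 in WT. The 3p arm was at 454 rpm in MKI, 1002 in PKI, 476 in HOMO and 1161 in WT. The shift was 2.01 for MKI minus PKI and 1.72 for HOMO minus WT. miR-30a, its close relative, shifted by 1.81 and 1.59 in the same comparisons. The 3p arms of both were low in MKI and HOMO, which is the order of the domain microRNAs. miR-301b shifted the other way, by -1.39 and -1.26. The other 5 did not shift by 1 in HOMO minus WT. They were miR-301a, at -1.56 for MKI minus PKI and -0.34 for HOMO minus WT, miR-652, at 1.54 and 0.34, miR-181c, at 1.52 and 0.42, miR-425, at 1.34 and 0.02, and miR-152, at 1.17 and -0.20. Outside the 8, miR-34b passed 1 in HOMO minus WT alone, at 1.18, with 0.49 for MKI minus PKI. These precursors were named after their values were seen.

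Among mRNAs, 339 of 13279 kept genes (2.55%) were at least 2-fold higher in MKI than in PKI and 2198 (16.6%) at least 2-fold lower. HOMO minus WT gave 89 (0.67%) and 104 (0.783%). Higher genes made up 13.4% of the MKI calls, or 29.9% after quantile normalization, which moved the median of all by 0.16. The filter kept Pla2g4c, at 1.48 FPKM in MKI, 0.654 in PKI, 1.00 in HOMO and 0.892 in WT, and left out Col20a1, at 0.317 FPKM in MKI, 0.547 in PKI, 1.00 in HOMO and 1.13 in WT. Most of the difference was carried by the MKI column: of the 2198 lower genes, HOMO and WT both lay on the PKI side of the midpoint between MKI and PKI in 2048 (93.2%). Of the 339 higher genes that was so in 140 (41.3%), while in 93 (27.4%) both lay on the MKI side, so that PKI was the column apart. The lists that follow are to be read against 2.55% higher and 16.6% lower over all kept genes. At 4 of 28 endothelial, 5 of 32 Hox, 3 of 18 insulin-like growth factor and 6 of 30 hypoxia and glycolysis genes, the share lower in MKI is near that background.

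A pattern by maternal transmission was uncommon among mRNAs. HOMO lay on the MKI side and WT on the PKI side for 20 of the higher genes (5.9%) and 76 of the lower genes (3.46%). The reverse, WT on the MKI side and HOMO on the PKI side, held for 86 higher genes (25.4%) and 37 lower genes (1.68%). HOMO minus WT passed 2-fold in the direction of MKI minus PKI for 16 higher genes (4.72%) and 38 lower genes (1.73%). It passed 2-fold in the opposite direction for 13 and 26. Of the 16, Eif2s3y is Y-linked and was listed at 0 in WT. Ccnb1ip1, a ubiquitin ligase of meiotic crossing over on chromosome 14 (chr14:50789249-50795728), was the extreme, at 2.21 FPKM in MKI, 2339 in PKI, 1.24 in HOMO and 1012 in WT. Its log2 differences were -9.75 and -9.19, so its columns split as the domain microRNAs did, although it is on another chromosome. Tpm3, a tropomyosin, was at 45.04 FPKM in MKI, 17.4 in PKI, 43.1 in HOMO and 19.1 in WT. mt-Nd1, a mitochondrial subunit of complex I, was at 355 FPKM in MKI, 95.8 in PKI, 211 in HOMO and 96.1 in WT. Atp5g1, which encodes the c subunit of ATP synthase, was at 12.2 FPKM in MKI, 53.1 in PKI, 12.5 in HOMO and 25.6 in WT. Tpm3 was named after its values were seen.

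**Figure D3:**
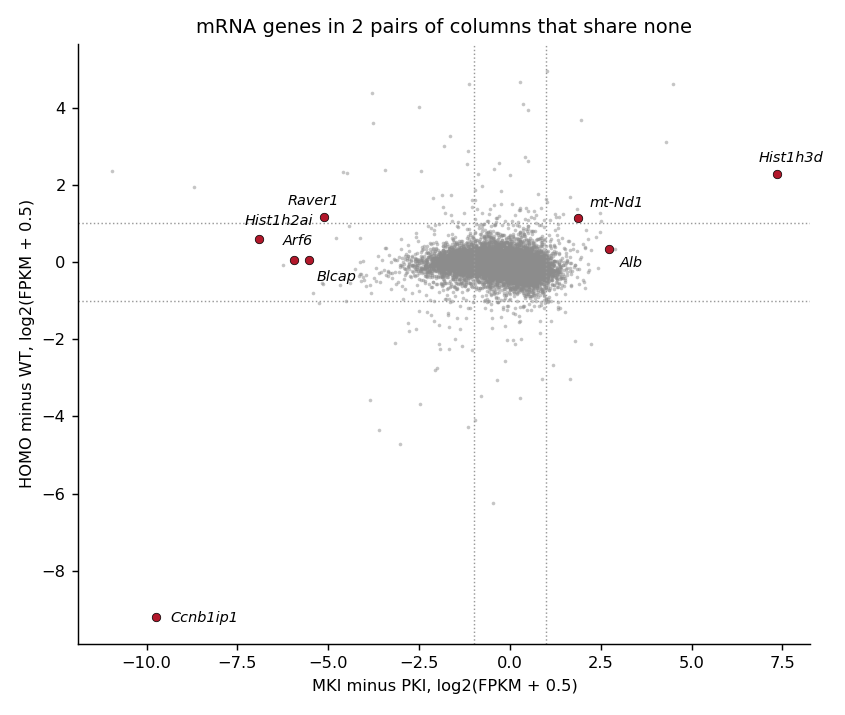
Log2 differences of kept mRNA genes, MKI minus PKI on the horizontal axis and HOMO minus WT on the vertical axis, 1 point per gene, with some named genes labelled. Ccnb1ip1 is far below 0 on both axes (-9.75 and -9.19), while Hist1h2ai lies far to the left (-6.92) with HOMO above WT.

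Liver genes were for the most part higher in MKI and lowest in PKI. Of 26 kept hepatocyte genes, 15 were at least 2-fold higher in MKI than in PKI and 1 was lower, with a median of 1.17 against -0.04 over all kept genes. Alb, the main plasma protein, was at 542 FPKM in MKI, 81.1 in PKI, 259 in HOMO and 205 in WT. Afp, its fetal relative, was at 457 FPKM in MKI, 96.2 in PKI, 365 in HOMO and 292 in WT. Both were highest in MKI and lowest in PKI. Trf, the iron carrier transferrin, was at 109 FPKM in MKI, 24.1 in PKI, 129 in HOMO and 85.1 in WT. Fga, a fibrinogen chain, was at 10.4 FPKM in MKI, 2.29 in PKI, 7.83 in HOMO and 7.19 in WT. PKI was the lowest column for 20 of the 26, and HOMO and WT were both above PKI for 24. The summed level was 1364 FPKM in MKI, 321 in PKI, 1026 in HOMO and 865 in WT. Cebpa, a transcription factor of hepatocytes, was the gene lower in MKI, at 0.221 FPKM in MKI, 2.10 in PKI, 1.40 in HOMO and 1.95 in WT, named after its values were seen. Of other plasma proteins, Itih2, which binds hyaluronan, was at 26.6 FPKM in MKI against 5.60 in PKI, and its relative Itih3 at 4.13 FPKM in MKI against 0.594 in PKI. The hepatic miR-122-5p was at 3979 rpm in MKI, 2695 in PKI, 4869 in HOMO and 3587 in WT, less than 2-fold apart. How the share of liver in each column bears on these values was not tested.

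Genes of definitive red cells were mostly lowest in PKI too. Of 30 kept, 11 were 2-fold higher in MKI and 1 lower, with a median of 0.44, and HOMO and WT were above PKI in all 30. The summed level ran the other way, at 2919 FPKM in MKI, 3807 in PKI, 9166 in HOMO and 6644 in WT, since the adult globins, which make up most of it, were lowest in MKI. Hba-a1 was at 793 FPKM in MKI, 1138 in PKI, 2922 in HOMO and 1899 in WT. Hbb-bs was at 744 FPKM in MKI, 1123 in PKI, 1972 in HOMO and 2201 in WT. Neither globin was 2-fold apart between MKI and PKI. Cpox, an enzyme of haem synthesis, was at 37.6 FPKM in MKI, 10.5 in PKI, 21.4 in HOMO and 22.6 in WT. Rhag, a membrane protein of red cells, was at 16.9 FPKM in MKI, 4.79 in PKI, 9.0 in HOMO and 10.6 in WT. For both genes MKI was the highest column and PKI the lowest. Epb42, a protein of the red cell membrane skeleton, had the same order, at 6.61 FPKM in MKI, 2.15 in PKI, 5.91 in HOMO and 5.46 in WT. Hemgn, a nuclear protein of blood precursors, was at 14.0 FPKM in MKI, 2.93 in PKI, 5.29 in HOMO and 8.68 in WT. Aqp1, the water channel, was the gene lower in MKI, at 1.43 FPKM in MKI against 3.95 in PKI, named after its values were seen.

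Embryonic globins, made by primitive red cells, did not share that order. Of 4 kept, none was 2-fold higher and 1 was lower. Hbb-bh1 was at 91.3 FPKM in MKI, 548 in PKI, 374 in HOMO and 220.2 in WT. Hbb-y was at 2237 FPKM in MKI, 3798 in PKI, 5619 in HOMO and 2334 in WT. Hba-x was at 663 FPKM in MKI, 368 in PKI, 1059 in HOMO and 400.0 in WT. Their columns had no common order. Globin copies are near identical, so reads may be shared between them. Of 11 kept blood progenitor genes 2 were higher and none lower. They are Ikzf1, a lymphoid and erythroid regulator, at 4.36 FPKM in MKI against 1.17 in PKI, and Myb, a regulator of progenitors, at 5.40 FPKM in MKI against 2.00 in PKI. Ppbp, a platelet chemokine, was the only one of 10 kept platelet genes past 2-fold, at 18.6 FPKM in MKI, 2.94 in PKI, 17.6 in HOMO and 10.1 in WT.

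Neuronal genes were higher in MKI than in PKI for the most part. Of 30 kept, 6 were 2-fold higher and 2 lower, with a median of 0.62, and PKI was the lowest column for 24. Dcx, a microtubule protein of migrating neurons, was at 80.2 FPKM in MKI, 26.4 in PKI, 42.5 in HOMO and 54.2 in WT. Elavl4, an RNA-binding protein of neurons, was at 34.2 FPKM in MKI, 11.3 in PKI, 14.9 in HOMO and 18.1 in WT. Snap25, a protein of synaptic vesicle fusion, was at 11.7 FPKM in MKI, 3.80 in PKI, 4.86 in HOMO and 6.98 in WT. Tubb3, the neuronal tubulin, ran against the list, at 41.4 FPKM in MKI, 121 in PKI, 170.0 in HOMO and 183 in WT, as did Stmn3, another regulator of microtubules, at 16.5 FPKM in MKI against 45.7 in PKI, which was named after its values were seen. Scg3, a granin of secretory vesicles, was at 20.3 FPKM in MKI, 5.00 in PKI, 6.84 in HOMO and 10.3 in WT. Of 23 kept neural progenitor genes, 1 was higher and 2 lower, with a median of 0.21. Centred within gene span, 6 were higher and 2 lower, with a median of 0.70. Sox2 was at 11.1 FPKM in MKI against 3.21 in PKI, Hes5 at 2.99 FPKM in MKI against 15.2 in PKI and Msi1 at 9.15 FPKM in MKI against 25.8 in PKI.

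Skeletal muscle and heart differed in direction. Of 19 kept sarcomere genes, 3 were 2-fold higher in MKI and none lower, with a median of 0.43. Ttn, the giant spring protein, was at 13.5 FPKM in MKI, 2.95 in PKI, 7.70 in HOMO and 10.8 in WT. Neb, which sets thin filament length, was at 7.13 FPKM in MKI, 1.63 in PKI, 2.96 in HOMO and 4.05 in WT. Myh3, the embryonic myosin, was at 27.1 FPKM in MKI, 9.81 in PKI, 19.3 in HOMO and 19.1 in WT. Of 12 kept myogenic regulators, only Myog was past 2-fold, and it was lower, at 5.17 FPKM in MKI against 20.6 in PKI. Of 17 kept heart genes, none was higher and 6 were lower, with a median of -0.59. The atrial light chain Myl7 was at 5.11 FPKM in MKI, 24.9 in PKI, 9.67 in HOMO and 15.5 in WT. The ventricular light chain Myl3 was at 4.15 FPKM in MKI, 14.7 in PKI, 10.6 in HOMO and 11.3 in WT. PKI was the highest column for 9 of the 17 heart genes. Tnni1, slow troponin I, was at 9.90 FPKM in MKI against 28.8 in PKI, and the heart regulator Gata4 at 1.00 FPKM in MKI against 3.46 in PKI.

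**Figure D4:**
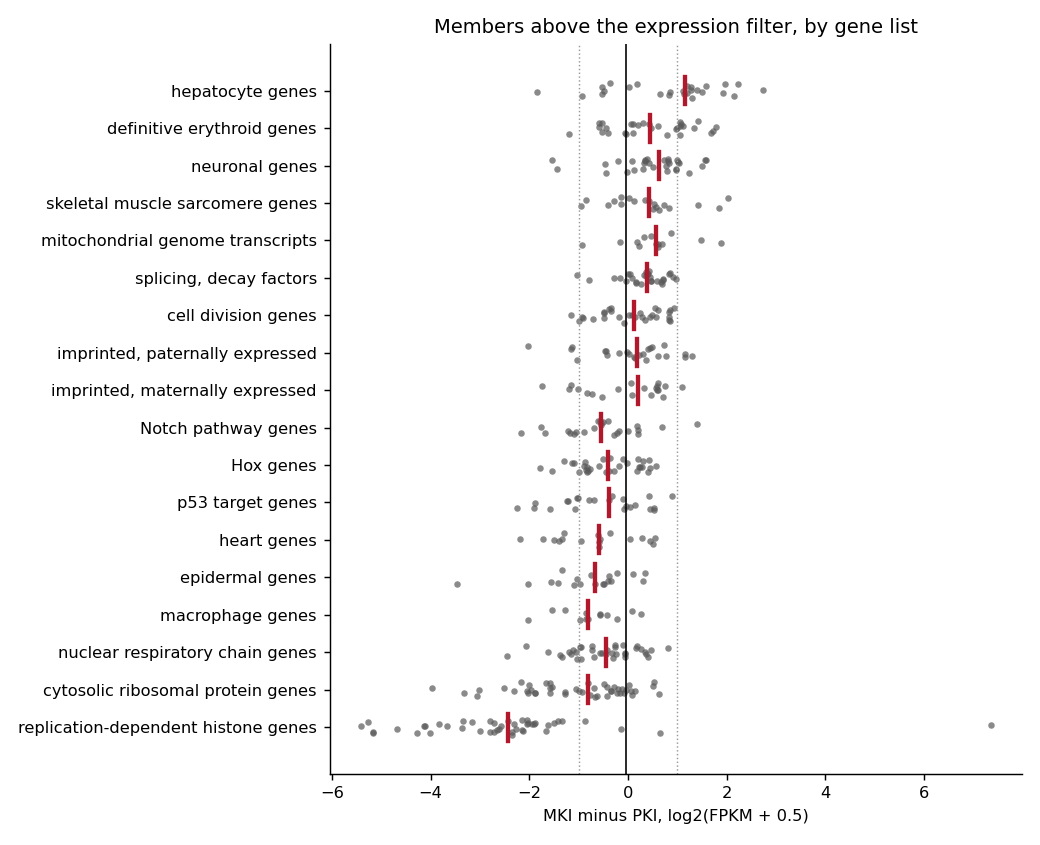
Log2 differences, MKI minus PKI, of the kept members of 18 gene lists, 1 point per gene, with a bar at each list median, a line at the median of all kept mRNA genes (-0.04) and dotted lines at 2-fold. The hepatocyte list has the highest of the plotted medians (1.17) and replication-dependent histones the lowest (-2.43).

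Epidermal genes were highest in PKI. Of 19 kept, none was 2-fold higher in MKI and 7 were lower, with a median of -0.66, and PKI was the highest column for 15. Krt14, a keratin of the basal layer, was at 0.905 FPKM in MKI, 15.0 in PKI, 6.24 in HOMO and 7.23 in WT. Its partner Krt5 was at 11.8 FPKM in MKI, 32.4 in PKI, 12.4 in HOMO and 13.6 in WT. Krt14 was lowest in MKI and highest in PKI, while for Krt5 PKI alone was apart. Krt15 was at 2.15 FPKM in MKI, 7.34 in PKI, 4.18 in HOMO and 3.22 in WT. Sfn, a 14-3-3 protein of keratinocytes, was at 0.629 FPKM in MKI, 4.11 in PKI, 2.30 in HOMO and 2.02 in WT. HOMO and WT were both below PKI for 17 of the 19.

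Over all kept genes 16.6% were 2-fold lower in MKI and 2.55% higher, so most genes past 2-fold were lower. Vessel wall and macrophage genes past 2-fold were lower too, except Kdr. The shares lower in these small lists were not far above or below that background. Of 28 kept endothelial genes, 1 was higher and 4 lower, with a median of -0.23 that quantile normalization turned to 0.01. Sox18, a regulator of endothelium, was at 1.20 FPKM in MKI, 4.75 in PKI, 4.80 in HOMO and 4.35 in WT. Cldn5, a tight junction protein, was at 1.99 FPKM in MKI, 7.00 in PKI, 6.95 in HOMO and 7.48 in WT. MKI alone was low for both. Acvrl1, a receptor for BMP9, was at 0.974 FPKM in MKI against 4.18 in PKI. Esam, an endothelial adhesion molecule, was at 1.46 FPKM in MKI against 4.03 in PKI, and Kdr, the receptor of VEGF and the gene that was higher, at 13.2 FPKM in MKI against 6.24 in PKI, named after its values were seen. Of 14 kept pericyte and smooth muscle genes 3 were lower, among them Notch3, at 7.06 FPKM in MKI against 16.9 in PKI. Of 13 kept macrophage genes 3 were lower and none higher, with a median of -0.81, and MKI was the lowest column for 11. Tyrobp, a signalling adaptor, was at 1.25 FPKM in MKI, 6.58 in PKI, 3.10 in HOMO and 3.71 in WT, and the complement chain C1qc at 0.607 FPKM in MKI against 2.74 in PKI. C1qa, another chain, was at 0.837 FPKM in MKI against 2.73 in PKI.

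In the Notch pathway, which restrains differentiation of progenitors, 1 of 24 kept genes was 2-fold higher in MKI and 7 were lower, with a median of -0.55. Centred within gene span, 1 was higher and 3 lower, with a median of -0.38. Hes5, a target gene, was at 2.99 FPKM in MKI, 15.2 in PKI, 17.7 in HOMO and 21.9 in WT. Hes6, which opposes other Hes factors, was at 6.16 FPKM in MKI, 21.9 in PKI, 28.7 in HOMO and 31.7 in WT. Both were lowest in MKI. The ligand Jag2 was at 1.04 FPKM in MKI against 4.40 in PKI. Rbpj, the DNA-binding partner of Notch, was the higher one, at 20.9 FPKM in MKI, 7.64 in PKI, 9.46 in HOMO and 12.4 in WT. MKI was the lowest column for 18 of the 24.

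Among growth and stress genes, the share lower in MKI was near the 16.6% of all kept genes, and the largest differences were those of Igfbp2 and Ddit4. Igfbp2, which binds insulin-like growth factors, was at 7.40 FPKM in MKI, 94.7 in PKI, 55.7 in HOMO and 67.8 in WT. That was the largest difference among 18 kept genes of that axis, of which none was 2-fold higher and 3 were lower. The median of the axis was 0.24, with 12 of the 18 genes above 0. Centred within gene span, 2 were higher and 1 lower, with a median of -0.002. Ddit4, an inhibitor of mTOR that responds to stress, was at 1.94 FPKM in MKI, 22.5 in PKI, 15.7 in HOMO and 19.2 in WT. Of 23 kept genes of the stress response 5 were lower and none higher, with a median of -0.04. Centred within gene span, 2 were higher and 2 lower, with a median of 0.51, and quantile normalization (0.06) and median centring (0.0007) also turned the sign. Of 30 kept hypoxia and glycolysis genes 6 were lower and none higher, with a median of -0.36. Among them Mif, a cytokine, was at 51.4 FPKM in MKI, 187 in PKI, 149.9 in HOMO and 164 in WT. The enzyme Aldoa was at 64.4 FPKM in MKI, 164 in PKI, 200.1 in HOMO and 169 in WT. Ldha, which makes lactate, was at 91.0 FPKM in MKI, 222 in PKI, 210.1 in HOMO and 193 in WT.

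Of 23 kept p53 target genes, 9 were 2-fold lower in MKI and none was higher, with a median of -0.38. Phlda3, an inhibitor of Akt, was at 1.22 FPKM in MKI, 7.66 in PKI, 5.43 in HOMO and 6.53 in WT. The apoptosis gene Bax was at 8.52 FPKM in MKI, 32.6 in PKI, 26.4 in HOMO and 26.9 in WT. Bbc3, another gene of apoptosis, was listed at 0 in MKI and at 1.36 FPKM in PKI. Trp53 itself was at 11.9 FPKM in MKI, 36.9 in PKI, 40.2 in HOMO and 37.6 in WT. For Phlda3 and Trp53, PKI, HOMO and WT lay close together and MKI alone was low. Of 32 kept Hox genes, which set position along the body axis, 5 were lower and none higher, with a median of -0.41. Centred within gene span, 5 were higher and none lower, with a median of 0.17. Hoxb2 was at 1.92 FPKM in MKI, 7.86 in PKI, 6.53 in HOMO and 8.01 in WT, and Hoxc11 at 0.0609 FPKM in MKI against 1.14 in PKI. Of 30 kept cell division genes, 1 was lower, E2f1, at 3.66 FPKM in MKI against 8.75 in PKI, and none was higher.

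Ribosomal protein genes were among the lists with most genes 2-fold lower. Of 47 kept, 21 were lower in MKI and none higher, with a median of -0.80, and PKI was the highest column for 37. Rps14 was at 75.5 FPKM in MKI, 1185 in PKI, 591 in HOMO and 745 in WT. Rpl34 was at 29.0 FPKM in MKI, 295 in PKI, 194 in HOMO and 172 in WT. Rps19 was at 48.3 FPKM in MKI against 409 in PKI, and Rplp1, a protein of the ribosomal stalk, at 81.5 FPKM in MKI against 664 in PKI. Processed pseudogenes resemble these genes, so their counts are uncertain.

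Respiratory chain genes differed by genome. Of 37 kept nuclear genes, 10 were lower in MKI and none was higher, with a median of -0.44. Cox6a1, a subunit of complex IV, was at 10.3 FPKM in MKI, 58.1 in PKI, 49.4 in HOMO and 47.4 in WT. Of 13 transcripts of the mitochondrial genome, 2 were higher and none lower, with a median of 0.58, and MKI was the highest column for 11. mt-Co2, a core subunit of complex IV, was at 424 FPKM in MKI, 151 in PKI, 255 in HOMO and 198 in WT. mt-Nd3, of complex I, was at 177 FPKM in MKI, 336 in PKI, 144 in HOMO and 176 in WT.

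Replication-dependent histone genes, whose transcripts end in a stem-loop instead of a poly(A) tail, were the lowest list. Of 45 kept, 41 were 2-fold lower in MKI and 1 was higher, with a median of -2.43. Their summed level was 3628 FPKM in MKI, 18586 in PKI, 14264 in HOMO and 13980 in WT, and MKI was the lowest column for 41 of the 45. Hist1h2af was at 19.7 FPKM in MKI, 723 in PKI, 302 in HOMO and 440.2 in WT. Hist1h2ac was at 0.772 FPKM in MKI, 53.6 in PKI, 22.3 in HOMO and 39.2 in WT. Hist1h2ai was at 3.93 FPKM in MKI, 535 in PKI, 283 in HOMO and 189 in WT. Hist1h3d was the higher one, at 167 FPKM in MKI, 0.520 in PKI, 116 in HOMO and 23.8 in WT. Histone genes are near-identical copies, so how reads were divided among them is uncertain for each. RNA was selected by oligo(dT), and the part of that selection in the values was not tested.

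Genes of splicing and nonsense-mediated decay were higher in MKI by less than 2-fold. Of 30 kept, none was 2-fold higher, 1 was lower, and MKI was the highest column for 25, with a median of 0.39. Upf2, a decay factor, was at 20.3 FPKM in MKI, 10.02 in PKI, 8.64 in HOMO and 10.5 in WT. Smg5, which acts later in the same pathway, was the gene lower in MKI, at 8.60 FPKM in MKI, 18.2 in PKI, 21.5 in HOMO and 18.9 in WT. Of 18 kept genes of microRNA production and action, 1 was lower and none higher, with a median of 0.38. Dicer1, which cuts precursors, was at 37.6 FPKM in MKI, 21.9 in PKI, 28.6 in HOMO and 28.0 in WT. Its partner Tarbp2 was at 8.02 FPKM in MKI, 22.5 in PKI, 21.6 in HOMO and 22.4 in WT. The 2 partners differed in opposite directions, and MKI was the column apart for Tarbp2.

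Only 4 kept genes were listed at 0 in MKI and at 5 FPKM or more in PKI, HOMO and WT, and PKI and HOMO had none of the kind. Arf6, a GTPase of membrane traffic, was at 0 FPKM in MKI, 30.3 in PKI, 27.4 in HOMO and 26.3 in WT. Msx1, a homeobox regulator of facial and limb growth, was at 0 FPKM in MKI, 13.4 in PKI, 12.5 in HOMO and 7.90 in WT. Raver1, a co-factor of splicing, was at 0 FPKM in MKI, 16.8 in PKI, 20.2 in HOMO and 8.81 in WT. Blcap was at 0 FPKM in MKI, 22.5 in PKI, 27.3 in HOMO and 26.1 in WT. No fold is given for them, since a listed 0 may be a failed estimate.

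Gene length went with the direction of the difference. For 12333 kept genes with a RefSeq span (92.9%), Spearman's rho between span and the log2 difference was 0.448 for MKI minus PKI and -0.154 for HOMO minus WT. For PKI minus WT, which shares the PKI column with the first, it was -0.279. The trend in MKI minus PKI can therefore not be assigned to the MKI column alone. These values are across genes of the same libraries, which are not replicates. In the bin of shortest genes, 1 of 10, with a median span of 3.0 kb, the median difference was -0.79 and 41.6% of genes were 2-fold lower in MKI. In the bin of longest genes, with a median of 227 kb, it was 0.33 and 2.11% were lower. Ttn, Neb, Dcx and Upf2 are long genes and stand among the higher ones, while ribosomal protein genes are short and stand among the lower ones. The 45 histone genes had no span in the reference table and entered none of these values.

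Centred within 20 bins of span, an alternative added after the data were seen, 525 genes were higher and 1291 lower; without centring the same genes gave 247 and 2015. List medians then moved unequally. That of ribosomal proteins became -0.13, with 4 of 47 genes higher and 12 lower. For nuclear respiratory genes it became -0.11, with 2 of 37 higher and 3 lower. For p53 target genes it became 0.01, with none of 23 higher and 4 lower. For Hox genes it became 0.17, with 5 of 32 higher and none lower, the reverse of the count without centring. The hepatocyte median was 1.32 after centring and the red cell median 0.76. The Notch median was -0.38, with 1 of 24 genes higher and 3 lower. The heart median was -0.41, with 1 of 17 higher and 5 lower. For epidermal genes the median was -0.71, with none of 19 higher and 4 lower. For macrophage genes it was -0.36, with none of 13 higher and 2 lower. The part of gene length in the lists was not tested beyond these values.

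**Figure D5:**
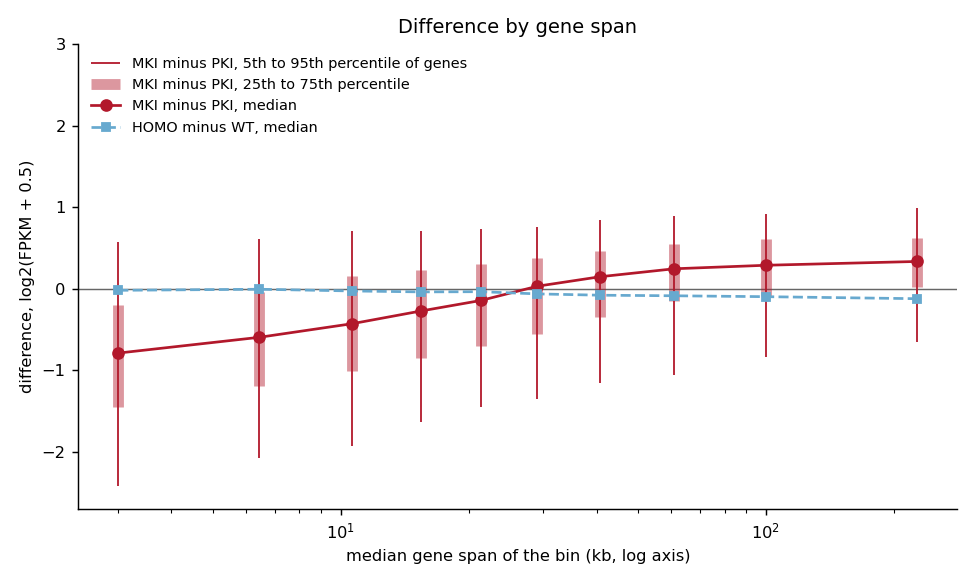
Log2 difference of kept mRNA genes in 10 bins of gene span (median span in kb on a log axis), with the median, the 25th to 75th and the 5th to 95th percentiles for MKI minus PKI and the median for HOMO minus WT. The MKI minus PKI median goes from -0.79 in the bin of shortest genes to 0.33 in that of the longest.

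Long non-coding transcripts were split in direction. Of 6181 kept, 526 (8.51%) were at least 2-fold higher in MKI than in PKI and 362 (5.86%) lower, with a median of 0.36. HOMO minus WT gave 185 (2.99%) and 321 (5.19%), with a median of -0.22. Higher ones made up 59.2% of the MKI calls, but 36.8% after quantile normalization and 29.5% after median centring, so the direction with more calls depended on the scaling. Those scalings moved the median of all by -0.34 and -0.36. Of 878 with an Ensembl identifier, 70 (7.97%) were higher and 133 (15.1%) lower. Of 5303 assembled by the authors, 456 (8.6%) were higher and 229 (4.32%) lower.

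The transcripts highest in PKI were next set beside the other columns. Since PKI is in the comparison, this choice favours lower values in MKI, and the values are a description only. The 10 were all at least 2-fold lower in MKI, and they summed to 1391 FPKM in MKI, 54227 in PKI, 25313 in HOMO and 29717 in WT. That was 8.93% of the MKI column, 81.7% of PKI, 65.4% of HOMO and 64.6% of WT. The largest of them, MSTRG.23398.6, was at 2.92 FPKM in MKI, 29660 in PKI, 13466 in HOMO and 14818 in WT. Among the higher ones MSTRG.106933.2 was at 16.4 FPKM in MKI, listed at 0 in PKI, and at 3.74 in HOMO and 0.888 in WT. MSTRG.10992.1 was at 15.3 FPKM in MKI and 3.96 in HOMO, and was listed at 0 in PKI and WT. Among lower transcripts 88 of 362 (24.3%) were also 2-fold lower in HOMO than in WT, and 43 were 2-fold higher there. Among higher ones 55 of 526 (10.5%) were also 2-fold higher in HOMO than in WT, and 68 were 2-fold lower there. The files do not pair these identifiers with gene names, so their relation to Meg3, Rian and Mirg was not analysed here.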

How the data were processed

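The members and lists were chosen with earlier results of these data known. Per the labels' protocols, RNA was selected with oligo(dT), made into dUTP-stranded libraries and read as pairs on a NovaSeq; how small-RNA libraries were made is not stated there. Per the submitters' processing notes the tools include cutadapt 1.9, HISAT2 2.0.4 and StringTie 1.3.4d on GRCm38, and DESeq2 and edgeR with no role named.

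The deposited mRNA and long non-coding tables were read as FPKM, made by the authors, since StringTie writes that unit and the headers name none; their read depth is unknown. The deposited microRNA values are RPM made by the authors. Each value was whole reads to within 0.02 read in 100% of cases. That gave totals of 8638401 reads assigned to listed microRNAs in MKI, 10072670 in PKI, 8016848 in HOMO and 8405962 in WT. An mRNA or long non-coding column may be a single sample, pooled reads or a mean of both samples, which no source states. Whole reads on a common total in a microRNA column would come from a single library or from pooled reads of both samples. A mean of RPM values from libraries with unequal totals would not in general give whole reads. Whether the microRNA columns are single libraries or pooled reads is not stated either. All samples are grouped by the genotype label.

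From these values the log2(value + 0.5) difference MKI minus PKI was computed for features at 1 FPKM (mRNA), 0.5 FPKM (long non-coding) or 10 RPM (microRNA) or more in at least 2 of 4 columns, which kept 13279, 6181 and 505. The difference understates changes of low features. Of 29639 mRNA entries, 22022 were matched to a symbol, 7603 are newly assembled genes and 40 entries that share 20 symbols were summed. The domain was taken by microRNA number and by RefSeq position between Dlk1 and Dio3. Lists are described by counts and medians. Shares of reads have exact Clopper-Pearson and ratios exact conditional 95% intervals, for counting error only. No test over samples was possible.

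Genes were named by a fixed rule: at 2-fold with a symbol, the 10 largest differences each way with 2 FPKM or more in the higher column and the 10 largest with 20 FPKM or more, the members of each list that differed most (at most 4), domain and flanking genes, the 10 domain microRNAs highest in PKI, and 5 microRNAs each way outside it at 50 RPM or more. Those named otherwise are marked in the text or are the markers of cell types. Alternatives were pseudocounts, filters, quantile normalization, centring and fold thresholds. Steps were tested on simulated data. Python 3.11.15 was used with numpy 2.4.6, pandas 2.3.3, scipy 1.17.1 and matplotlib 3.10.9.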

Additional observations from a re-analysis of the deposited data

How the results depend on the processing

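Limits come first from the design: no paired analysis was possible because the columns carry no replicate number, and no replicate could be left out because each genotype has 1 column per table. The domain result did not depend on the settings, since its median stayed between -5.01 and -4.29 under every alternative run. Counts did. For mRNA, 339 higher and 2198 lower genes became 579 higher with no filter, 170 higher with the stricter filter, 705 higher with quantile normalization, 1961 higher and 3769 lower at 1.5-fold, 23 higher and 382 lower at 4-fold, and 525 higher and 1291 lower centred within gene span, which was added after seeing the data. For long non-coding transcripts, 526 higher and 362 lower became 1198 higher with a pseudocount of 0.1, 235 higher and 174 lower with 1, 1255 higher and 638 lower both with no filter and with the filter in MKI or PKI, 90 higher and 99 lower with the stricter filter, 255 higher with quantile normalization, 225 higher with median centring, 1816 higher and 578 lower at 1.5-fold, and 70 higher and 90 lower at 4-fold. For microRNAs outside the domain, 8 higher and 11 lower became 94 higher and 56 lower with no filter, 4 higher and 7 lower with the stricter filter, 103 higher and 3 lower with quantile normalization, 4 higher with RPM outside the domain, 56 higher and 32 lower at 1.5-fold, and 1 higher and 2 lower at 4-fold. The cause was not tested, except that a filter changes how many features enter and a threshold how many pass. The hepatocyte median was 0.99 with no filter. Of 42 mRNA list medians, 12 changed sign under some alternative, 6 of them apart from span centring. Among them are flanking genes (0.20 with the stricter filter), endothelium (0.01 with quantile normalization), cartilage (-0.21 with the stricter filter), embryonic globins (0.19 centred within gene span), p53 targets (0.01, centred likewise) and Hox genes (0.17, centred likewise). Some medians of microRNA lists changed sign too, among them those of red cells, skeletal muscle and heart, and skin epithelium.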
